A study of Mus musculus with 34 samples.

Results

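Ribosome biogenesis factors are the nucleolar proteins that copy ribosomal RNA (rRNA) genes and then modify, cut and assemble the transcript into subunits. The members were the protein-coding genes of the deposited table whose symbols begin with Polr1 and a single letter, or with Nop, Utp or Rrp and a number, or have the form of Noc2l. Fbl, Ncl, Npm1, Dkc1, Nhp2, Gar1, Bop1, Pes1, Wdr12, Ubtf and Rrn3 were added by symbol. This rule uses names and no measured value, and it found 46 of 23011 genes. All 46 passed the low-count filter in each comparison below.

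RNA was sequenced from soleus, a slow postural muscle, and plantaris, its fast neighbour, of female mice. Aged mice were 24 months old and young mice 6 months old. In each age the mice were sedentary or ran voluntarily for 8 weeks on a wheel with progressively added weight (PoWeR), and tissue was taken after an overnight fast, with the wheels of runners locked for 24 hours. Each aged sedentary group held 5 libraries and each of the other 6 groups held 4, which made 34 libraries in 8 groups. Strain and genotype are not given in the sources used here. No label ties a library to an animal of its own, so p-values measure the spread between libraries, which may be technical.

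The first step of ribosome production is transcription of the rRNA repeats by RNA polymerase I (Pol I), which needs the DNA-binding factor Ubtf and the initiation factor Rrn3. Box C/D particles, built on the methyltransferase Fbl with Nop56 and Nop58, then methylate the transcript, and box H/ACA particles, built on the pseudouridine synthase Dkc1 with Gar1, Nhp2 and Nop10, convert uridines to pseudouridines. Utp and several Rrp proteins form the large particle that processes the small (40S) subunit, while Bop1, Pes1 and Wdr12 form the PeBoW complex of the large (60S) subunit. In muscle, making ribosomes is known as part of the growth response to loading. The steady-state level of these mRNAs is not the rate at which rRNA is made.

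Total counts ran from 15237617 to 26250434 per library (median 17565645.5), and the members together took 0.110% to 0.190% of them. The 8 libraries labelled young plantaris went against their label by myosin. They held 19980 to 32440 CPM (counts divided by TMM-adjusted library size) of the slow myosin Myh7 and 14.2 to 41.8 of the fast myosin Myh4, whereas the 9 aged plantaris libraries held 59.7 to 1764 CPM of Myh7 and 13050 to 73340 of Myh4. They are called "labelled young plantaris" throughout and are not compared with aged plantaris. The aged plantaris samples carry soleus in their titles and plantaris in the source name, and the extraction text names plantaris for every sample; their myosins were those of a fast muscle. Aged and young libraries also formed separate sets, so age and library set cannot be told apart. In whole muscle, fewer cells of a type and less RNA per cell cannot be told apart.

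Promoter sequence was at hand for 38 members (RefSeq, GRCm38.p6). Only 4 are shown, each as the 250 bases before the RefSeq transcription start, 5′ to 3′ on the gene's strand. They belong to the members on which the results turn, and the E-box CACGTG, the preferred site of Myc-family factors, is in capitals. Nop10 (chr2:112261676-112261925, plus strand) was lower with PoWeR in young soleus, and Rrp7a (chr15:83122802-83123051, minus strand) was the member nearest to the threshold with PoWeR in aged soleus. Nop56 (chr2:130274162-130274411, plus strand) was higher in aged soleus, and Rrn3 (chr16:13780449-13780698, plus strand) varied least between groups.
Nop10: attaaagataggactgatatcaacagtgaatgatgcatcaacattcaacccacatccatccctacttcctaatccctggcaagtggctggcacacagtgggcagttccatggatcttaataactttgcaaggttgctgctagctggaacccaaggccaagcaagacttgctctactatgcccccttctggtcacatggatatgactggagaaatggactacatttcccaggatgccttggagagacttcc
Rrp7a: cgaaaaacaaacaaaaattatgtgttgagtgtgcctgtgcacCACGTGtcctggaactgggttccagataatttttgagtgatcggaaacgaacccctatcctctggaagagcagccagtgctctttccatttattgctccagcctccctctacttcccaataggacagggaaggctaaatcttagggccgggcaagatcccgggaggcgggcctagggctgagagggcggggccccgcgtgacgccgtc
Rrn3: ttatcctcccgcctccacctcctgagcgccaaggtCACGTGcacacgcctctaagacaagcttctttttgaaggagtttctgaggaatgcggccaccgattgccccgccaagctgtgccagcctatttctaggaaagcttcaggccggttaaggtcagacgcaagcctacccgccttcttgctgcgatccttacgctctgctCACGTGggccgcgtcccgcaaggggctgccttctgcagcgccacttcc
Nop56: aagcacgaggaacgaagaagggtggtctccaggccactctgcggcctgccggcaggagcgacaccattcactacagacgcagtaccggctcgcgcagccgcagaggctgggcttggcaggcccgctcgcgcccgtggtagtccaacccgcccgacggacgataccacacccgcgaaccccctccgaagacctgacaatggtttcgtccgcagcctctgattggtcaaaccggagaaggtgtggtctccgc
The E-box lay 208 bases before the start in Rrp7a and 215 and 48 bases before it in Rrn3, and the letters were in neither the Nop10 nor the Nop56 window. Counting the 250-base windows of every RefSeq start on both strands, 6 of 38 members (15.8%: Nop2, Rrn3, Rrp7a, Utp14b, Utp18 and Utp25) held CACGTG, against 9.01% of 14011 genes of the table. The ETS-type motif CCGGAAGT was found in 5 of 38 members (13.2%: Gar1, Nhp2, Polr1c, Utp3 and Utp4), against 5.30% of the same genes. No member held both motifs, and CACGTG reads the same on both strands. Holding the letters is a description of the window and says nothing of a bound factor.

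The members were low to moderate in abundance. Mean CPM over the 34 libraries ran from 1.59 for Utp14b, a retrotransposed copy of Utp14a, to 287 for Ncl, the nucleolar histone chaperone nucleolin, with a median of 17.5. Divided by exonic length (45 members have one), levels ran from 0.207 to 28.1 CPM per kb, with a median of 5.29. On that per-kb scale Ncl was highest (28.1), followed by Rrp1, a 60S factor (27.8), Npm1 (23.2) and Utp3 (23.1). By role, the pair of nucleolar chaperones had a median of 25.7, the box H/ACA proteins of 9.43, the 60S factors 5.96, the Pol I genes 5.81, the small subunit factors 4.41 and the box C/D proteins 1.71. The fold between the highest and the lowest of the 8 group means was 1.64 at the median over members, against 1.87 over the 12121 genes at or above the level of the lowest member. Rrn3 had the smallest spread, at 1.2-fold. Its libraries lay between 32.5 and 67.1 CPM.

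**Figure D1:**
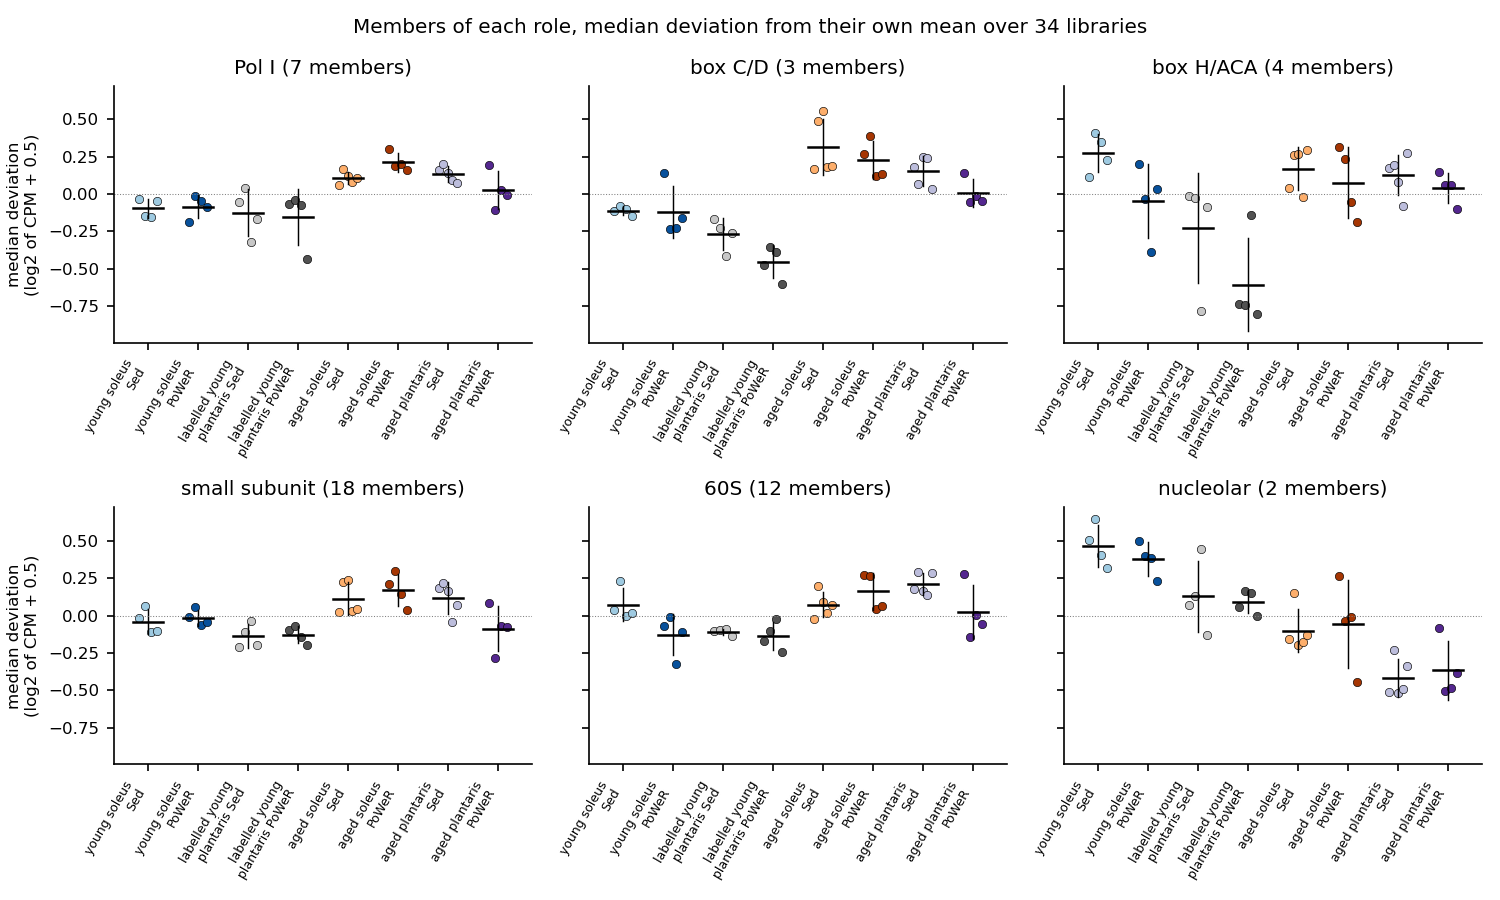
Median deviation of the members of each role from their own mean over 34 libraries (log2 of CPM + 0.5), per library, in 8 groups; bars are group means and lines ± 1 SD. The box H/ACA panel shows the widest range, from -0.81 to 0.41, and the nucleolar panel, with 2 genes, has its lowest value, -0.52, in an aged library.

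Whether weighted running moved these genes was asked first in aged soleus. None of the 46 members passed edgeR's quasi-likelihood test after Benjamini-Hochberg adjustment over 14934 genes (threshold 0.05), where 0.857% of all genes did. At an unadjusted p under 0.05 there were 6 members, and DESeq2 called 1. The log2 fold change was positive for 31 members and negative for 15, between -0.45 and 0.46, with a median of 0.05 against -0.00 over all genes. The groups did not overlap for 2 members (both higher), against 6.77% of genes.

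Rrp7a, a small subunit processing factor, was nearest to the threshold. In sedentary aged soleus its levels were 20.4, 18.9, 19.6, 20.2 and 20.2 CPM, and with PoWeR they were 27.7, 27.3, 25.7 and 28.4 CPM. Each PoWeR library was above each sedentary one. The log2 fold change was 0.46 ± 0.11 (SE), with an edgeR adjusted p of 0.0578. DESeq2 gave an adjusted p of 0.0175, and over 15 alternatives the adjusted p ran from 0.0126 to 0.184. Leaving out a library gave 0.44 to 0.49 and no call in 9 fits. In the GENCODE annotation 678 of its 5411 exonic bases are shared with Serhl on the opposite strand. Whether the counting used strand is not given in the sources used here, and Serhl differed by -0.19 (edgeR adjusted p = 0.656).

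The other member whose groups did not overlap was Noc2l, a 60S factor, at 32.1, 38.7, 39.6, 35.7 and 38.1 CPM sedentary and 43.1, 47.1, 41.0 and 42.1 CPM with PoWeR. The difference of Noc2l was 0.24 ± 0.10 (SE, edgeR adjusted p = 0.315), and 598 of its 2867 exonic bases are shared with Samd11 on the opposite strand. Bop1, the scaffold of PeBoW, differed by 0.25 ± 0.11 (edgeR adjusted p = 0.369). Ubtf differed by 0.23 ± 0.11 (edgeR adjusted p = 0.374), with 60.1 to 83.7 CPM sedentary and 72.1 to 89.8 CPM with PoWeR, ranges that overlap. Among 107 other biogenesis factors, from lists of small subunit, large subunit and Pol I genes and the RNA exosome, edgeR called none in this comparison, and their median log2 fold change was 0.02. Of 8 satellite cell and myoblast markers 1 was called higher, and their summed level was 111 to 190 CPM sedentary and 86.3 to 209 CPM with PoWeR; its part in the result was not tested.

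In young soleus, where 1920 genes or 12.9% of those tested changed with PoWeR, 2 members (4.35%) were called and both fell: Nop16, a 60S assembly factor, and Nop10, the smallest box H/ACA protein. Another 5 members had an unadjusted p under 0.05, and DESeq2 called 3. The log2 fold change was negative for 28 members and positive for 18, with a median of -0.05 against 0.04 over all genes. The groups did not overlap for 4 members, all lower, against 14.9% of genes. The count over all genes rested on single libraries: it was 602 when sedentary library 2 was left out and 1272 when sedentary library 3 was, and leaving out PoWeR library 2 or 3 gave 696 or 623.

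Nop16 was at 14.5, 14.6, 13.8 and 14.6 CPM in sedentary young soleus and at 8.33, 8.52, 6.76 and 10.4 CPM with PoWeR. Each PoWeR library lay below each sedentary one. It fell by 0.72 on the log2 scale (SE 0.15, edgeR adjusted p = 0.00872), and it stayed called in all 8 leave-one-out fits, at -0.84 to -0.62. Nop10 was at 22.4, 30.0, 24.6 and 24.4 CPM sedentary and at 20.9, 15.1, 12.4 and 21.1 CPM with PoWeR. The lowest sedentary library was just above the highest PoWeR library. Nop10 fell by 0.51 (SE 0.16, edgeR adjusted p = 0.0416), but it was called in only 3 of the 8 leave-one-out fits, and without PoWeR replicate 3 it was at -0.38 (edgeR adjusted p = 0.151). Its call was also lost without sedentary replicate 2, 3 or 4 or PoWeR replicate 2. Over 13 alternatives the adjusted p of Nop10 ran from 0.0166 to 0.153.

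Nhp2, which binds the guide RNA with Nop10, missed the threshold. Its levels were 16.6, 22.4, 22.7 and 19.1 CPM sedentary and 17.7, 13.3, 10.1 and 15.7 CPM with PoWeR. The groups overlapped through a single library on each side, and the difference was -0.48 ± 0.17 (SE, edgeR adjusted p = 0.0608). Gar1 was at 11.3, 8.81, 10 and 10.3 CPM sedentary and 10.3, 9.35, 5.46 and 6.64 CPM with PoWeR, while Dkc1, their catalytic partner, was at 17.8 to 24.7 and 22.1 to 24.2 CPM. The 4 box H/ACA proteins thus did not move as one: the median of the 4 differences was -0.40 and that of Dkc1 was 0.11. Utp11 differed by -0.26 ± 0.10 (edgeR adjusted p = 0.0974), and groups of Polr1d (-0.22, edgeR adjusted p = 0.168) and Wdr12 (-0.19, edgeR adjusted p = 0.277) did not overlap. Pol I genes had a median of 0.05 and small subunit factors of -0.01.

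Of the 107 other factors 1 rose and 4 fell in young soleus with PoWeR, against 891 and 1029 of 14934 genes. Baz2a, a subunit of the complex that silences rRNA repeats, rose by 0.49. Nob1, the nuclease that trims the small subunit rRNA, fell by 0.50, the helicase Ddx56 fell by 0.48, the methyltransferase Bud23 fell by 0.46 and Sbds, a late 60S factor, fell by 0.30. Ribosomal protein mRNAs, which encode the other components of the ribosome, fell in 51 of 78 genes and rose in none, with a median of -0.58. PoWeR replicate 3, without which the count over all genes was 623, had the lowest ribosomal protein median deviation of young soleus, at -0.40. Of 13 upstream regulators, Mxd4 (0.41), an antagonist of Myc, and Tsc2 (0.38), an inhibitor of mTORC1, rose. Mycn fell by 2.40 (SE 0.73, edgeR adjusted p = 0.0341).

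**Figure D2:**
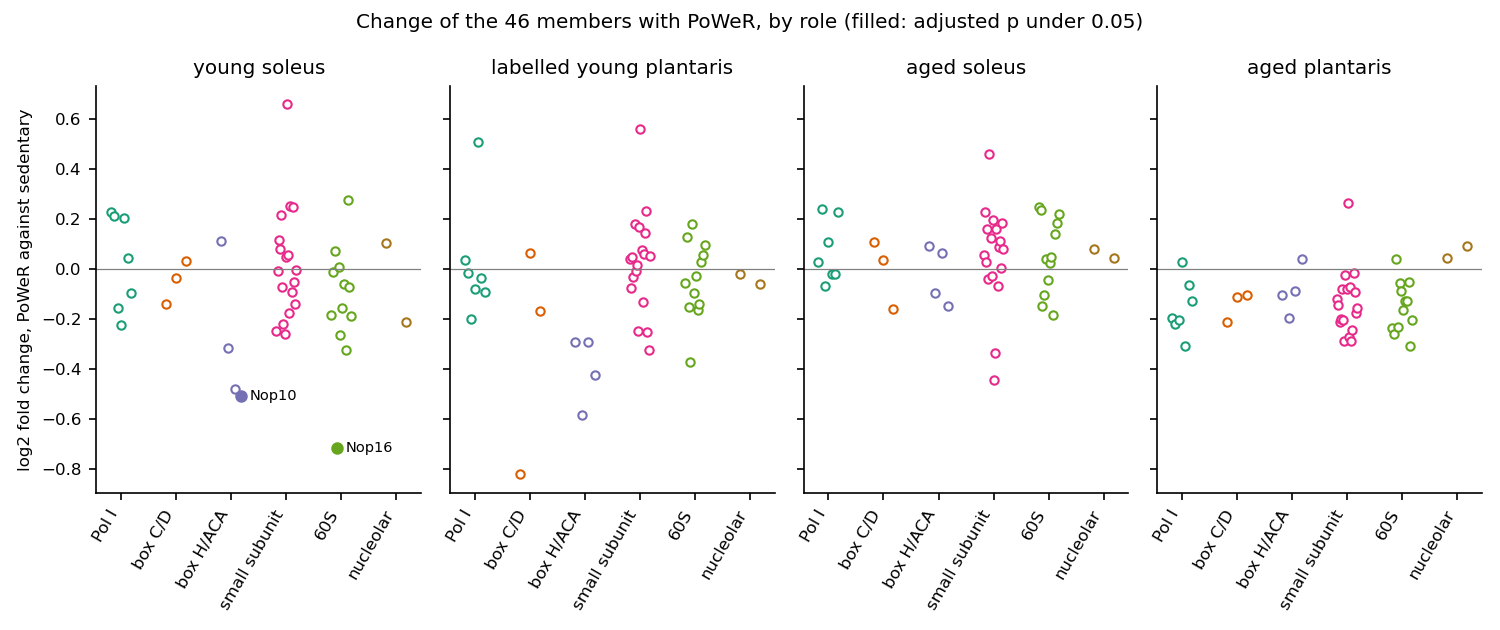
Log2 fold change of PoWeR over sedentary for each member, by role, in the 4 muscle and age sets; filled points were called by edgeR. The 2 called members, Nop16 at -0.72 and Nop10 at -0.51, are in young soleus.

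A measure of RNA composition moved with these box H/ACA values. The rRNA repeat sequence in the table took 0.242% to 3.71% of counts. It was under 0.7% in 5 young libraries (young soleus PoWeR replicate 3, labelled young plantaris sedentary replicate 3 and PoWeR replicates 1, 2 and 4), at 0.242% to 0.578%, and at 1.27% to 3.71% in the other 11 young libraries. In the 5, the box H/ACA median was -0.81 to -0.39 relative to the genes' own means, against -0.14 to 0.41 in the 11 and -0.19 to 0.32 in the 18 aged libraries. The 2 sets of young libraries did not overlap. Ribosomal protein mRNAs were also low in the 5, at -0.53 to -0.40 against -0.20 to 0.79.

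Gene by gene, all 5 of these libraries lay below all 11 others for 6 of 46 members (13%), against 4.10% of genes tested, and above them for none, against 1.19% of genes. The 6 were Nop16 (mean 5.68 against 11 CPM), Nop53 (82.4 against 119), Gar1 (4.01 against 8.67), Nhp2 (8.17 against 16.6), Nop10 (11.4 against 20.8) and Polr1c (9.33 against 13.3). Fbl, at 4.50 against 10.1 CPM, overlapped through 1 library. Dkc1 was at 26.7 against 21.9 CPM in mean, but only labelled young plantaris sedentary replicate 3 (43.2 CPM) stood out. The rest of the 5 were at 21.3 to 24.0 CPM. Of the 6, Nop10 (1109 exonic bases), Nhp2 (1146), Gar1 (1714) and Nop16 (1845) were among the 5 shortest of 45 members with a length, whose median was 3800. Polr1c had 2278 bases and Nop53 had 3847, above that median. Utp3, the third shortest at 1629 bases, was at 39.9 against 44.8 CPM and overlapped. With a term for the low share in the young soleus comparison, Nop16 stayed called at -0.62 (edgeR adjusted p = 0.0323), and Nop10 at -0.38 (edgeR adjusted p = 0.153) and Nhp2 at -0.35 (edgeR adjusted p = 0.210) were not. In that fit the term marked only young soleus PoWeR replicate 3, so it nearly repeats the fit without that library. There Nop16 was at -0.625 (edgeR adjusted p = 0.0317), Nop10 at -0.381 (edgeR adjusted p = 0.151) and Nhp2 at -0.350 (edgeR adjusted p = 0.209). What sets the share was not tested.

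**Figure D3:**
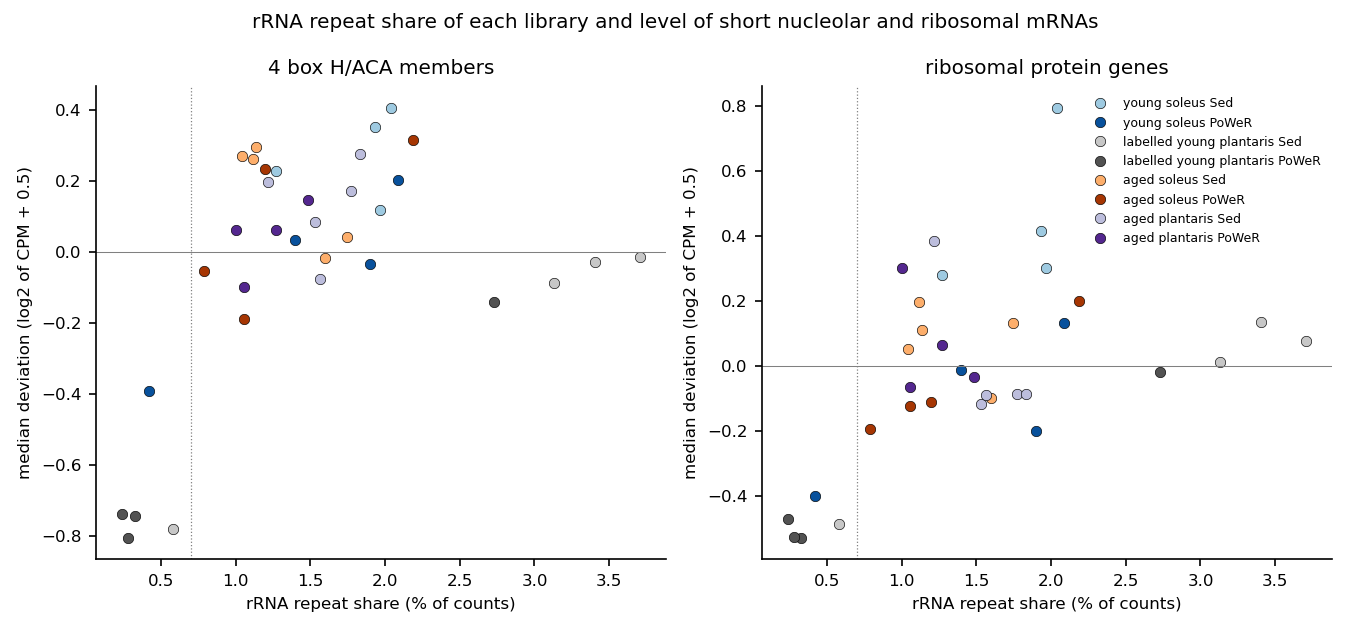
Box H/ACA and ribosomal protein median deviation (log2 of CPM + 0.5) against the share of counts on the rRNA repeat sequence, 1 point per library, coloured by group, with a dotted line at 0.7%. The 5 young libraries under 0.7% lie at -0.39 or lower for box H/ACA.

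In the labelled young plantaris libraries no member was called by edgeR with PoWeR (0.223% of genes were), 3 had an unadjusted p under 0.05 and DESeq2 called none. No member's groups were apart, against 7.66% of genes. Fbl, the box C/D methyltransferase, was at 9.14, 10.1, 2.94 and 8.88 CPM sedentary and 4.53, 2.97, 5.65 and 4.17 CPM with PoWeR. A single sedentary library, replicate 3, was as low as the PoWeR libraries, and it is 1 of the 5 with a low rRNA repeat share. The difference of Fbl was -0.82 ± 0.31 (SE, edgeR adjusted p = 0.284), -1.10 without sedentary replicate 3 (edgeR adjusted p = 0.0387) and -0.17 with the term for the low share (edgeR adjusted p = 0.936). These adjusted p-values were the lowest and the highest of 13 alternatives. Nop10 was at 16.2, 18.2, 13.7 and 18.1 CPM sedentary and 10.9, 10.2, 18.1 and 9.99 CPM with PoWeR, a difference of -0.42 ± 0.17 (edgeR adjusted p = 0.317). Without PoWeR replicate 3, the high library, Nop10 was at -0.67 (edgeR adjusted p = 0.0338), while with the term for the low share it was at -0.18 (edgeR adjusted p = 0.789). These were the lowest and the highest adjusted p over the 13 alternatives. In this fit the term marked sedentary replicate 3 and PoWeR replicates 1, 2 and 4, so it largely follows training. For Fbl and Nop10 it can hardly separate the low share from PoWeR. Gar1 differed by -0.59 (edgeR adjusted p = 0.360) and Utp3 by -0.25 (edgeR adjusted p = 0.440).

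In aged plantaris, too, edgeR called no member with PoWeR (0.0262% of genes were), 1 had an unadjusted p under 0.05 and DESeq2 called none. Here 40 of 46 members had a negative log2 fold change, with a median of -0.13 against 0.01 over all genes, and 17 of 18 small subunit factors and 11 of 12 60S factors were among them. Single differences were small, between -0.31 and 0.27. The smallest adjusted p was that of Rrp8, a 60S-side methyltransferase, at -0.31 ± 0.13 (edgeR adjusted p = 0.437), followed by Rrp7a at -0.21 ± 0.11 (edgeR adjusted p = 0.564). Rrp8 shares 355 of its 3558 exonic bases with Ilk on the opposite strand. The groups did not overlap for 1 member, Utp6 at -0.15, against 2.86% of genes. Among the 107 other factors 28 were positive, with a median of -0.11 and none called.

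A library stood apart in this comparison. Aged plantaris PoWeR replicate 12 had the lowest median of members of any aged library (-0.18), the lowest Myh4 of aged plantaris (13050 CPM), and the highest summed markers of Schwann cells (265 CPM, with 45.6 at the lowest of its group and 24.9 to 58.4 in the sedentary group), fibro-adipogenic progenitors (1047 CPM, with 345 at the lowest of its group and 198 to 588 in the sedentary group), macrophages (167 CPM) and adipocytes (1690 CPM). All 8 of 8 Schwann, macrophage and progenitor markers and 7 of 8 adipocyte markers were positive with PoWeR, and none was called. Without that library the median of members was -0.10, and without PoWeR replicate 10 it was -0.19. The part of those cells in the result was not tested.

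**Figure D4:**
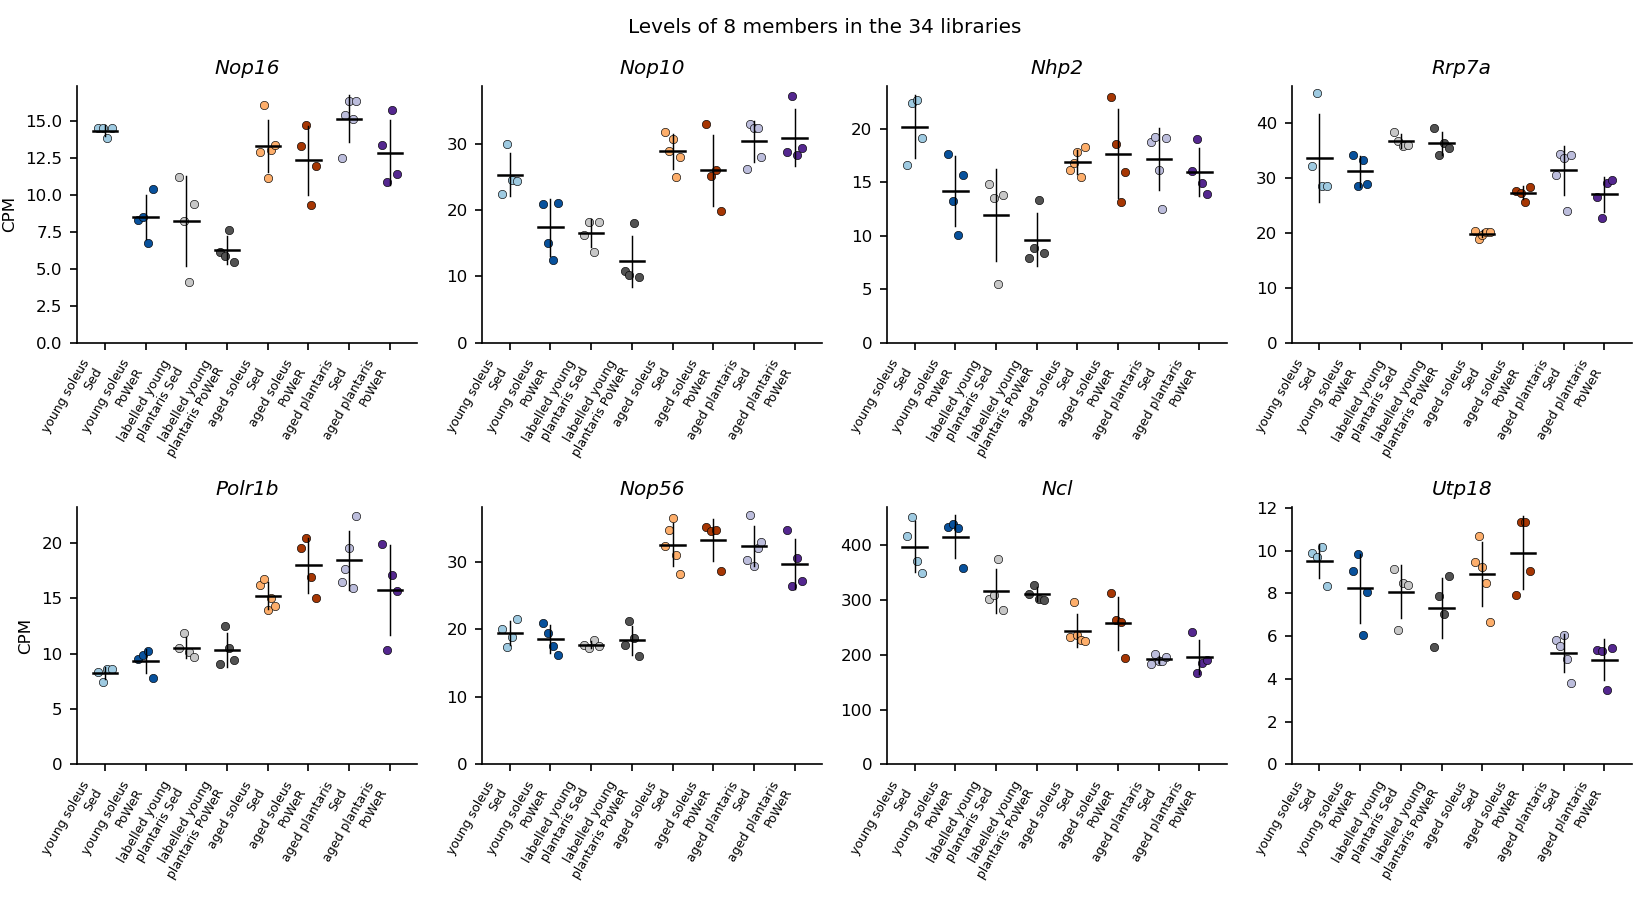
CPM per library of Nop16, Nop10, Nhp2, Rrp7a, Polr1b, Nop56, Ncl and Utp18 in the 8 groups; bars are means and lines ± 1 SD. Nop16 is lower in all 4 young soleus PoWeR libraries than in the 4 sedentary ones, and Rrp7a higher in all 4 aged soleus PoWeR libraries than in the 5 sedentary ones.

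The direct test of whether PoWeR acted differently at the 2 ages in soleus called no member and no gene (0.0% of genes by edgeR), with 7 members at an unadjusted p under 0.05 and none called by DESeq2. The difference of differences was 0.61 for Nop16 (edgeR adjusted p = 0.250), 0.53 for Rrp7a (edgeR adjusted p = 0.216), 0.43 for Bop1 (edgeR adjusted p = 0.292) and 0.41 for Wdr12 (edgeR adjusted p = 0.276). So the fall of Nop16 in young and not in aged soleus, where its libraries were 11.2 to 16.1 CPM sedentary and 9.34 to 14.8 CPM with PoWeR, was not shown to differ by age.

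The age comparison gave more calls than PoWeR. In sedentary soleus 20 of 46 members (43.5%) differed between aged and young libraries by edgeR, against 36.2% of all genes. Of these 14 were higher in aged soleus (30.4%, against 19.5% of genes) and 6 lower (13%, against 16.7%). DESeq2 called 21, and the median log2 fold change was 0.12 against 0.03 over all genes. As a check added after the data were seen, labelled young plantaris libraries of the same training state were put in place of young soleus. They were soleus-like by myosin. Of all 8 such libraries 4 had the low rRNA repeat share, and of the sedentary ones used here only replicate 3 did. Title codes of both young sets share numbers, so these libraries may come from the same mice, and the check may not rest on new animals. With this substitution 26 members were called (21 higher, 5 lower), and 16 of the 20 kept their call and direction.

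The Pol I subunit Polr1b, which forms the catalytic centre with Polr1a, was at 16.2, 16.8, 14, 15.1 and 14.3 CPM in aged and 8.33, 7.46, 8.60 and 8.65 CPM in young sedentary soleus. The groups were far apart, with a difference of 0.94 ± 0.12 (SE, edgeR adjusted p = 7.27e-06). It was at 0.56 with the other young libraries (edgeR adjusted p = 0.000547). Polr1a differed by 0.53 (78.3 against 56.4 CPM, edgeR adjusted p = 0.000105), but by only 0.07 with the other young libraries (edgeR adjusted p = 0.545), which ended its call. The third called Pol I subunit, Polr1e, was higher by 0.69 at 2.23 against 1.44 CPM and was called in only 1 of 9 leave-one-out fits.

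Within the box C/D particle the partners parted. Nop56 was at 32.2, 34.7, 36.4, 31.0 and 28.1 CPM in aged and 20.0, 17.4, 18.8 and 21.5 CPM in young sedentary soleus, with no overlap (0.80 ± 0.11, edgeR adjusted p = 8.42e-06), and Nop58 was higher by 0.53. Fbl, the enzyme they hold, was at 6.89, 5.53, 8.22, 4.2 and 7.45 CPM in aged and 10.6, 14.1, 12.7 and 8.18 CPM in young libraries and was lower (-0.75 ± 0.19, edgeR adjusted p = 0.00355). The highest aged library was barely above the lowest young one, and with the other young libraries the difference was -0.23 and no longer called (edgeR adjusted p = 0.496). Nop56, Nop58 and Ncl overlap annotated small nucleolar RNA genes, and a pseudogene of Fbl is annotated, so reads could be shared there. The pseudogene, Fbl-ps2, differed by -0.05 in this comparison (edgeR adjusted p = 0.835). None of the 4 box H/ACA proteins was called.

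Among small subunit factors 6 were higher and 2 lower. Utp20, a long scaffold protein, was higher by 0.76, Utp11 by 0.64 and Noc4l by 0.62. Rrp7a was at 19.9 CPM on average in aged and at 32.3, 45.4, 28.6 and 28.6 CPM in young libraries and was lower (-0.70 ± 0.11, edgeR adjusted p = 8.48e-05), and Utp3 was lower too (-0.42). Among 60S factors Noc3l (0.94 ± 0.14), Rrp1b (0.83) and Nop2 (0.43) were higher and Nop53 (-0.75) lower. Besides Polr1e, the calls of Utp25 (2 of 9) and Rrp12 (4 of 9) held in fewer than 5 of the leave-one-out fits of this comparison.

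Both nucleolar chaperones were lower in aged soleus. Ncl was at 233, 296, 236, 228 and 225 CPM in aged and 418, 451, 371 and 349 CPM in young sedentary libraries. Each aged library lay below each young one, with a difference of -0.65 ± 0.12 (SE, edgeR adjusted p = 0.000269). Npm1, nucleophosmin, was at 53.5 to 69.7 CPM in aged and 74.3 to 90.7 CPM in young libraries (-0.38). With the other young libraries Ncl was at -0.35 and still called (edgeR adjusted p = 0.0132), and Npm1 was at -0.08 and not (edgeR adjusted p = 0.647).

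**Figure D5:**
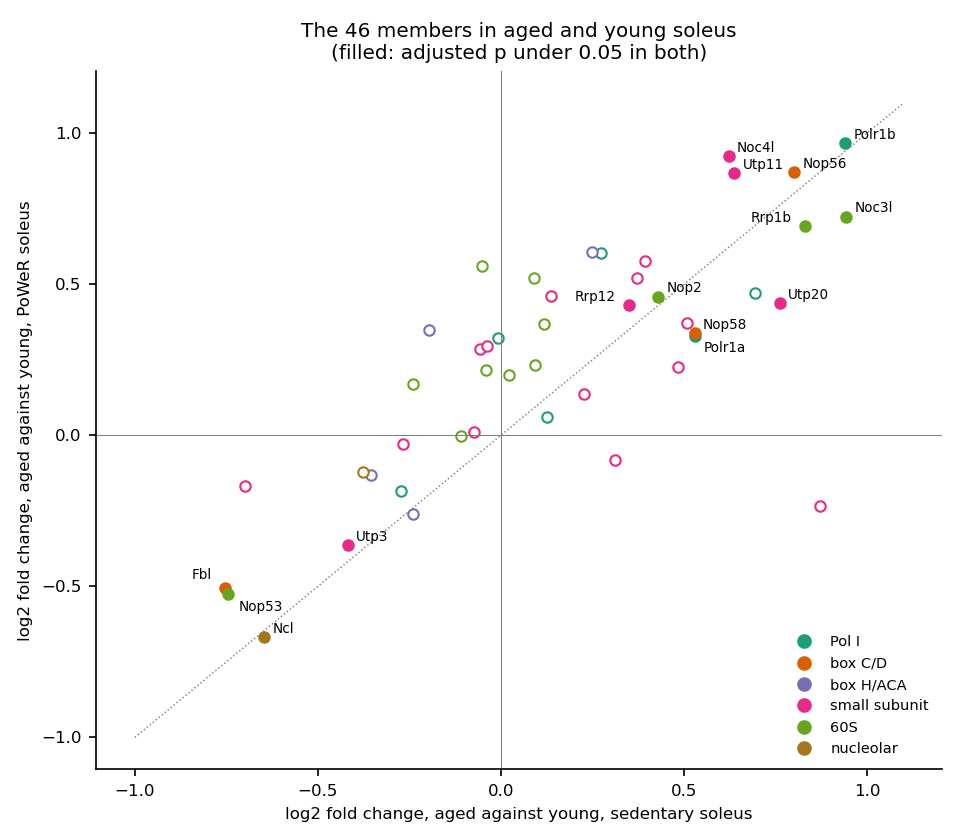
Log2 fold change of aged over young soleus in sedentary libraries (x axis) and in PoWeR libraries (y axis) for each member, coloured by role; filled points were called in both, and the dotted line marks equal values. Polr1b at 0.94 and 0.97 and Nop56 at 0.80 and 0.87 lie at the top right, and Ncl at -0.65 and -0.67 at the bottom left.

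The PoWeR libraries, which share no sample with the sedentary ones, gave the same comparison again. They belong to the same aged and young library sets and were fitted together with the sedentary ones. A difference between library sets would therefore recur here, and the repeat cannot separate it from age. With PoWeR 24 members (52.2%, against 37.9% of genes) differed by age, 20 higher in aged soleus (43.5%, against 19.7%) and 4 lower (8.70%, against 18.1%). DESeq2 called 23, and the median was 0.31 against 0.02 over all genes. Called in both with the same sign were 15 members (11 higher, 4 lower), which is 75.0% of the sedentary calls and 62.5% of the PoWeR calls. Over all genes the shared 3479 were 64.3% and 61.5%.

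Polr1b (0.97), Noc4l (0.93), Nop56 (0.87), Utp11 (0.87), Noc3l (0.72) and Rrp1b (0.69) were again higher, and Ncl (-0.67), Nop53 (-0.53), Fbl (-0.50) and Utp3 (-0.36) again lower. None of these 4 was called lower with the labelled young plantaris libraries in place of young soleus. Ncl was then at -0.24 (edgeR adjusted p = 0.110), Nop53 at -0.32 (edgeR adjusted p = 0.0608) and Utp3 at -0.12 (edgeR adjusted p = 0.455), while Fbl reversed to 0.71 and was called higher in aged soleus (edgeR adjusted p = 0.0377). With young soleus, Fbl was called lower in 1 of 8 leave-one-out fits, and its pseudogene Fbl-ps2 was higher by 0.59 (edgeR adjusted p = 0.00714). Sharing of reads between them was not tested. In that substitution 27 members were called (26 higher, 1 lower), 17 of the 24 kept their call and direction, and the single lower member was Rrp7a (-0.38). Among the labelled young plantaris PoWeR libraries used there, replicates 1, 2 and 4 had the low rRNA repeat share. The part of that share in these calls was not tested. Polr1a (0.07), Noc2l (0.13) and Utp23 (0.41, edgeR adjusted p = 0.0925) lost their calls too. The 6 members just named as higher kept theirs. Noc4l was at 9.22, 9.88, 9.12 and 8.80 CPM in aged and 4.61, 4.42, 5.51 and 5.28 CPM in young PoWeR libraries, with no overlap. Ubtf was at 86.9, 82.6, 89.8 and 72.1 CPM in aged and 47.8, 64.5, 49.9 and 59.8 CPM in young PoWeR libraries. These groups did not overlap either, and Ubtf was higher by 0.60 ± 0.11 (edgeR adjusted p = 0.000363). Nop10 (0.61), Utp23 (0.58) and Nop16 (0.56) were higher with age among PoWeR libraries, the set in which young soleus was low for Nop10 and Nop16. Utp23 was called in 3 of 8 leave-one-out fits and Nop58 (0.34) in 2.

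Other factors of the pathway were also more often higher than lower in aged soleus. Of 107, 43 (40.2%, against 19.5% of all genes) were higher and 8 (7.48%, against 16.7%) lower in sedentary libraries (median 0.26). With PoWeR 50 (46.7%, against 19.7%) were higher and 2 (1.87%, against 18.1%) lower (median 0.35). Taf1d (1.62 and 1.28) and Taf1a (1.08 and 1.42), subunits of the selectivity factor that places Pol I on the rRNA promoter, and Ppan (1.15 and 1.65), a 60S factor, were among the largest. In the sedentary comparison Dimt1 (0.94), which dimethylates the small subunit rRNA, was higher and Zfp622 (-0.92), a cytoplasmic 60S factor, lower. Of the RNA exosome genes 4 of 14 (28.6%) were higher and none lower among sedentary libraries. The 13 upstream regulators did not lean the same way: 1 was higher and 4 lower in sedentary soleus (median -0.15), and 2 higher and 4 lower with PoWeR (median 0.00). The 2 higher ones with PoWeR were Myc (1.16 ± 0.27, edgeR adjusted p = 0.00219) and Mycn (2.09 ± 0.73, edgeR adjusted p = 0.0301). Mxd4 (-0.56) and Tsc2 (-0.47) were among the lower. Ribosomal protein mRNAs did not follow: 12 were higher and 36 lower of 78 in sedentary soleus, and 22 higher and 19 lower with PoWeR.

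Markers of other cells moved with age as well. Of 8 fibro-adipogenic progenitor markers 2 were lower in aged sedentary soleus and 4 with PoWeR, with summed levels of 193 to 495 CPM in aged and 461 to 660 CPM in young sedentary libraries. Adipocyte markers summed to 756 to 1262 CPM in aged and 440 to 538 CPM in young sedentary soleus. Their part in the members' differences was not tested.

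Within aged mice soleus was also set against plantaris. Among sedentary libraries 15 members differed (32.6%, against 32.9% of genes), 9 higher in soleus (19.6%, against 17%) and 6 lower (13%, against 15.8%), a share near that of all genes. Utp18, a small subunit factor, was at 9.46, 10.7, 9.25, 8.46 and 6.65 CPM in soleus and 5.80, 5.53, 6.05, 4.94 and 3.81 CPM in plantaris. The groups did not overlap (0.80 ± 0.17, edgeR adjusted p = 0.00109). Rrp7a went the other way, at 18.9 to 20.4 CPM in soleus and 30.6, 34.4, 33.6, 24.0 and 34.3 CPM in plantaris (-0.63 ± 0.10, edgeR adjusted p = 2.71e-05), while Serhl, which shares exonic bases with it, was higher in soleus by 0.55. Utp14b was higher by 1.43 from levels of 0.481 to 3.91 CPM, and its exons overlap Acsl3 on the same strand, which was also higher (0.56, edgeR adjusted p = 0.0157).

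Of the rest, Utp14a (0.45), Rrp36 (0.39), Ncl (0.38), Noc3l (0.34) and Polr1a (0.32) were higher in sedentary aged soleus. Nop53 and Rrp1 were called higher there as well. Noc4l (-0.49), Wdr12 (-0.46), Rrp8 (-0.38), Dkc1 (-0.36) and Utp6 (-0.29) were lower. The count was 9 without soleus sedentary replicate 13, and Noc3l was called in 4 and Rrp8 in 5 of 10 leave-one-out fits. Among PoWeR libraries 11 members differed (23.9%, against 22.5% of genes), and all 11 were higher in soleus (23.9%, against 12.2%), with none lower (10.3% of genes were). The median was 0.21 against 0.00 over all genes. Utp18 was at 7.94, 11.3, 11.3 and 9.02 CPM in soleus and 5.33, 5.32, 3.50 and 5.46 CPM in plantaris, again with no overlap (1.03 ± 0.19, edgeR adjusted p = 0.000448). Polr1a was at 77.6, 82.9, 78.3 and 79.7 CPM in soleus and 67.0, 40.3, 54.5 and 59.8 CPM in plantaris (0.55). Utp14a (0.73), Rrp1b (0.46), Ubtf (0.44), Rrp36 (0.43), Rrp9 (0.41), Ncl (0.41), Rrp12 (0.40), Rrp1 (0.39) and Nop53 (0.34) were higher. Rrp36 was called in 1, Rrp12 in 2, and Rrp9 and Ncl in 3 of 8 leave-one-out fits; the count was 5 without soleus PoWeR replicate 12 and 6 without plantaris PoWeR replicate 14 or 15. The main fit took these libraries as unpaired, and with the sample number as a block 8 were called. Aged plantaris PoWeR replicate 12, the library with high markers of other cells, is on the plantaris side of this comparison: of 8 progenitor markers 0 were positive here (median -0.79), and of 7 Schwann markers 1 was (median -0.64). Without that library 8 members were called, all higher, and the median was 0.13.

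Whether PoWeR acted differently in the aged muscles was tested directly. No member and no gene was called by edgeR (0.0%), while 9 members had an unadjusted p under 0.05 and DESeq2 called 1. The difference of differences, soleus minus plantaris, was positive for 38 of 46 members, with a median of 0.18 against -0.02 over all genes, and was positive for 7 of 7 Pol I genes. Some markers of other cells went the opposite way in the same test. Positive were 0 of 8 progenitor markers (median -0.61), 0 of 7 Schwann markers (median -1.01) and 1 of 8 adipocyte markers (median -1.42). Satellite cell and myoblast markers did not, with 4 of 7 positive (median 0.45). None of these markers was called. Without aged plantaris PoWeR replicate 12 the median of members was 0.14. The part of those cells in the members' values was not tested. The difference of differences was 0.67 ± 0.14 for Rrp7a (edgeR adjusted p = 0.116), 0.50 for Noc2l (edgeR adjusted p = 0.284), 0.48 for Bop1 (edgeR adjusted p = 0.297) and 0.43 for Wdr12 (edgeR adjusted p = 0.259). For Rrp7a DESeq2 gave an adjusted p of 0.00350, and the alternatives ran from 0.00350 to 0.314. Rrp7a was also called without plantaris sedentary replicate 15 or PoWeR replicate 10.

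Young soleus and labelled young plantaris libraries were compared as an addition made after the values were seen. Title codes of both sets share numbers, so they may come from the same mice, and the fit used no pairing. Among sedentary libraries 5 members differed (10.9%, against 7.24% of genes): Nop16 (0.78), Nhp2 (0.73), Rrp15 (0.69) and Nop10 (0.58) were higher in young soleus and Polr1a (-0.46) lower. With PoWeR 3 differed (6.52%, against 3.99%), all higher in young soleus: Fbl (1.22), Gar1 (0.89) and Ncl (0.42). Of the 8 labelled young plantaris libraries 4 had the low rRNA repeat share, against 1 of 8 young soleus libraries, and the part of that share in these differences was not tested.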

How the data were processed

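The authors deposited 1 table of expected counts per gene (fractional values from their quantification) for the 34 libraries. The submitters' processing notes name STAR 2.7.3a, Partek, DESeq2 and mm10, with no role or order. Whether counting used strand is not given in the sources used here. Expected counts were rounded, genes were kept by edgeR's filterByExpr (minimum count 10, minimum total 15), and edgeR 4.0.16 (TMM factors, robust quasi-likelihood F test) was fitted on 17 soleus, 17 labelled plantaris or 18 aged libraries, with Benjamini-Hochberg adjustment over all genes tested and a threshold of 0.05. Limits of precision come from 4 or 5 libraries per group and 15237617 to 26250434 counts per library.

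CPM values use TMM factors over all 34 libraries, and deviations are of log2(CPM + 0.5). Exonic lengths came from GENCODE and promoters from RefSeq. Members and lists were chosen with earlier results of these data known. Members are named with values where called (the 12 largest changes where more were called), where p was smallest (up to 4 where fewer were called), where PoWeR and sedentary libraries did not overlap, and where a member was the highest of its role or at the ends of the level range. Other called members in the age and muscle comparisons were named after their values were seen. Alternatives were DESeq2 1.42.0, its size factors in edgeR, no filter, only the groups compared, leaving out each library, and a replicate block. A term for a low rRNA repeat share, other young libraries and leaving out 2 aged plantaris libraries were added after seeing the data. In the soleus fit that term marks only young soleus PoWeR replicate 3 and acts much as leaving that library out. In the plantaris fit it marks labelled young plantaris sedentary replicate 3 and PoWeR replicates 1, 2 and 4, and so largely follows training. On simulated data with the same design, edgeR recovered 72 of 100 genes changed 2-fold and 33 of 100 changed 1.5-fold in the aged soleus PoWeR comparison, and 65 and 31 in young soleus. It recovered 61 and 18 in aged plantaris and 67 and 17 in labelled young plantaris. In each of these comparisons, soleus included, most 1.5-fold changes would be missed. The simulation changed 100 genes at each fold and left the rest unchanged, whereas 1920 genes were called in young soleus. Recovery in the data may therefore differ.

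Aged soleus and plantaris libraries share sample numbers. Their deviations correlated across genes at 0.14 to 0.24 for 4 PoWeR pairs. Of 5 sedentary pairs, replicates 13 to 16 were at 0.12 to 0.24 and replicate 12 at 0.02, short of the bound of 0.1. The numbers were therefore taken to pair the PoWeR libraries and not the sedentary ones. Main fits used no pairing, and the replicate block did. Within a muscle, sedentary and PoWeR libraries of the same number correlated at -0.12 to 0.08. There the number joins a sedentary and a runner library, so the block rests on no known pairing.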

Additional observations from a re-analysis of the deposited data

Results flagged for a closer look

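Of 96 groups checked (12 members in 8 groups), 10 held a library far from the others of its group; chance flags about 1 in 20 such groups. In young soleus, sedentary replicate 3 was low for Nop16 (13.8 CPM) and Noc4l (5.39 CPM), and PoWeR replicate 4 was low for Ncl (358 CPM). The flag is relative to the range of the group. The other sedentary libraries there were at 14.5 to 14.6 CPM for Nop16 and 6.21 to 6.37 CPM for Noc4l, so these gaps are small in size. In aged soleus, PoWeR replicate 15 was low for Nop56 (28.6 CPM), and sedentary replicate 13 was high for Ncl (296 CPM). In aged plantaris, PoWeR replicate 12 was high for Nop10 (37.2 CPM), and PoWeR replicate 14 was low for Utp18 (3.50 CPM). Among labelled young plantaris libraries, sedentary replicate 3 was low for Nhp2 (5.54 CPM) and Fbl (2.94 CPM), and PoWeR replicate 3, the 1 library of its group without a low rRNA repeat share, was high for Nop10 (18.1 CPM).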

How the results depend on the processing

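No count of called members turned in direction, and 1 named value did: Fbl in aged against young PoWeR soleus turned from -0.50 to 0.71 with the labelled young plantaris libraries in place of young soleus. Of the other values of called or named members, 1309 kept their side of the threshold, 13 passed it only under an alternative and 153 fell short of it. In aged soleus with PoWeR 1 member was called by DESeq2, in the fit of only the groups compared and with the term for a low rRNA repeat share. No aged soleus library had a low share, so there the term only sets aside a young soleus library. In young soleus 1 was called in the fit of only the groups compared and with that term, and leaving out a library gave 1 to 5. Leaving out a library gave 0 to 1 called among labelled young plantaris libraries, 18 to 19 for age in sedentary soleus, 19 to 23 for age with PoWeR, 9 to 15 for soleus against plantaris in sedentary aged mice (9 without aged soleus sedentary replicate 13), and 5 to 13 with PoWeR (5 without aged soleus PoWeR replicate 12, 6 without aged plantaris PoWeR replicate 14 or 15). The last comparison called 7 without the low-count filter and 5 in the fit of only the groups compared. The muscle by PoWeR test called 1 with DESeq2, and 0 to 1 when a library was left out. The causes were not tested. Over all genes, the count for PoWeR in young soleus was 1920, against 358 in the fit of only the groups compared and 620 with the rRNA term; in aged soleus it was 128, against 377 by DESeq2, 229 in the fit of only the groups compared and 216 with that term. DESeq2 called 119 genes with PoWeR in aged plantaris against 4, 229 in labelled young plantaris against 34, 73 for the age by PoWeR test and 184 for the muscle by PoWeR test, against 0 in each. In labelled young plantaris the fit of only the groups compared called 87 genes, and that with the rRNA term called 1. With the replicate block the count over all genes in aged soleus was 71. The block called 0 members with PoWeR in aged soleus and 0 in aged plantaris, where it rests on no known pairing. It called 15 for soleus against plantaris in sedentary mice, 8 with PoWeR and 0 for the muscle by PoWeR test. The block changed no other count of called members. Depth limits the rarest members, such as Utp14b and Polr1e.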
